A study of Homo sapiens with 12 samples.

Results

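Nuclear transport receptors and the genes of the Ran cycle are described here across the 12 RNA-seq libraries of a study of PGC-1α. The 32 genes were taken from a list of symbols, and each symbol was matched to 1 gene identifier among the 61860 genes of the count file. By role they comprise 6 importin alpha adaptors, 11 import receptors of the importin beta family, 8 exportins, 6 genes of the Ran cycle and the import adaptor SNUPN. The list was not cut by a measured value, but it was drawn up with earlier results of these data known. All 32 passed the filter on low counts.

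Proteins larger than the passive limit of the nuclear pore cross it bound to a receptor. Import receptors pick up cargo in the cytoplasm, either directly or through an importin alpha adaptor, and release it when they meet Ran bound to GTP in the nucleus, whereas exportins need Ran-GTP to hold their cargo. RCC1 loads Ran with GTP on chromatin, RANGAP1 with RANBP1 triggers hydrolysis outside the nucleus, and NUTF2 carries Ran-GDP back in. Bulk mRNA leaves by another receptor, NXF1, which does not belong to this family.

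The cells were Flp-In T-REx 293, a derivative of the human embryonic kidney line HEK293 with a single site for integrating a transgene. Both lines were given doxycycline at 1 µg/ml for 6 days, which induced chained miRNAs against endogenous PGC-1α together with an miRNA-resistant, FLAG-tagged PGC-1α cDNA, full length in WT-res and without the RS domain in ΔRS-res. Each line grew from a single selected colony, so that line and clone cannot be told apart, and a line without the miRNAs was not among the samples analysed here. Whole-cell RNA came from 1 well and cytoplasmic RNA from 6 pooled wells, in 3 replicates from consecutive passages, and p-values therefore measure the spread between passages of 1 clone per line. The comparisons ask which RNAs depend on the RS domain in the whole cell, and which do so in the cytoplasm alone.

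Library totals lay between 90333190 and 144628005 expected counts. The study left out WT-res replicate 2 and ΔRS-res replicate 3 of the cytoplasm after a principal component analysis, and cytoplasmic results are given both with the remaining 4 libraries and with all 6. In whole-cell RNA the library labelled WT-res replicate 3 did not follow its label at 2 genes that separate the lines: DDX19B was at 0.199 CPM (counts scaled to a common library size) there, against 12.6 and 13.2 in the other WT-res whole-cell libraries and 0.229 to 0.263 in ΔRS-res. At SDHA it held 335.2 CPM, against 72.7 and 70.9 in WT-res and 337.9 to 391.9 in ΔRS-res. It was kept under its label, and values without it stand beside the whole-cell results of the named genes. PPARGC1A reads, which can come from the cDNA as well as the endogenous gene, also differed between the lines. Cytoplasmic libraries held 537.9 to 652.4 CPM in WT-res and 286.8 to 384.6 in ΔRS-res. Whole-cell replicates 1 to 3 held 671.6, 689.0 and 498.3 CPM in WT-res and 351.8, 364.3 and 498.3 in ΔRS-res. The level of this RNA and the loss of the RS domain therefore cannot be told apart between the lines. Of the markers for HEK293 cells, VIM lay between 777.3 and 1023.4 CPM and NEFL between 189.6 and 360.7, while PAX2, LHX1 and NEFM stayed below 6 CPM, and 5 markers of blood, liver and endothelial cells summed to at most 0.25 CPM in any library.

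Reads were assigned to transcripts, and a few short stretches decide which isoform of a gene is counted. One such place in KPNA2, the most abundant importin alpha here, is printed because an isoform without 4 of its bases met the study's definition of a nuclear export target. The isoforms also differ in length elsewhere (1977 and 1721 bases). Its exons join at position 68044071 on chromosome 17 (GRCh38, plus strand, coding sequence), and the next exon begins at 68044321 in the leading isoform and at 68044325 in the other. In the sequences, taken from GENCODE release 44, the capitals mark the 4 bases that only the first of the pair holds.
ENST00000330459: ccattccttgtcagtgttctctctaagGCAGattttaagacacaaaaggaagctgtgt
ENST00000677827: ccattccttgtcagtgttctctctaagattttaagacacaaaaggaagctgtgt

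RAN was the most abundant of the 32 genes, followed by its binding partner RANBP1 and by KPNB1, the importin beta that works with the importin alphas. Levels between genes are given per length, as TPM (each transcript's count over its length, scaled to a fixed library sum) computed from the counts and the annotated transcript lengths, and as the mean of the 4 groups. RAN stood at 1100.3 TPM, with a range over libraries of 813.4 to 1321.1. RANBP1 stood at 499.7 TPM and KPNB1 at 426.3, and their library ranges of 410.5 to 627.9 and 315.8 to 510.1 overlapped. The 6 Ran cycle genes summed to 1980.0 TPM, more than the 1169.3 of the 11 import receptors and the 834.1 of the 8 exportins.

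Within each role a small number of genes carried most of the RNA. KPNA2 (305.3 TPM) held more than the other importin alphas together, whose 6 members summed to 515.3, and KPNA5 was lowest at 15.5 TPM. Among exportins CSE1L, which returns importin alpha to the cytoplasm, was highest at 276.9 TPM, and XPO1, the receptor for proteins with a leucine-rich export signal, followed at 154.3. The lowest exportin, and the lowest gene of the list, was RANBP17 at 11.9 TPM. IPO13, which moves cargo in both directions, was the lowest import receptor at 13.6 TPM. RANBP3, a cofactor of XPO1, was the lowest Ran cycle gene at 57.0 TPM, and SNUPN, which brings spliceosomal snRNPs into the nucleus, stood at 40.6. Across all 12 libraries the ranges of neighbours in this order overlapped, except those of RAN and RANBP1 and those of IPO5 and XPO1.

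In whole-cell RNA 0 of the 32 genes were called between the lines at an adjusted p under 0.05 by edgeR's quasi-likelihood test, as were 0.0% of all 26793 genes tested. At an unadjusted p under 0.05 there were 5 members (15.6%), against 12.5% of all genes, and DESeq2's Wald test called 1 member, KPNA5, and 3.96% of all genes. Log2 fold changes of ΔRS-res over WT-res ran from -1.14 to 0.18 with a median of 0.02, beside 0.0 over all genes tested. In 5 members every ΔRS-res library lay above every WT-res library (15.6%, against 8.74% of all genes) and in 4 every one lay below (12.5%, against 10.2%). Without the library labelled WT-res replicate 3 these were 5 members (15.6%, against 21.4%) and 9 members (28.1%, against 21.1%).

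KPNA5, an importin alpha of the same subfamily as KPNA1 and KPNA6, had the widest gap between the lines in whole-cell RNA. Its WT-res libraries held 23.9, 40.5 and 49.4 CPM, where CPM is scaled by TMM within a fraction. The ΔRS-res libraries held 15.5, 18.4 and 17.9 CPM. The groups did not overlap, and WT-res spread far more than ΔRS-res, with replicate 1 closest to ΔRS-res. The log2 fold change was -1.14 (SE 0.243) with an adjusted p of 0.213 in edgeR. With the replicate number as a block edgeR gave -1.08 (adjusted p = 0.0257). Same-numbered whole-cell libraries deviated together in these same data, but the labels do not say that they share a passage. Omitting the library labelled WT-res replicate 3, with no block, edgeR gave -0.90 (adjusted p = 0.0805). With both changes, a combination chosen after the data were seen, edgeR's adjusted p was 0.00891. Without WT-res replicate 1 the fold change was -1.39, with an adjusted p of 0.0163 in edgeR, which then called 2.24% of all genes, and 2.06% without replicate 3. The 28 neighbouring genes within 5 Mb on either side, limited to mean counts of 100 and above, gave a median of -0.14.

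Under the replicate block edgeR called 3 members in whole-cell RNA (KPNA3, KPNA5 and IPO7), all lower in ΔRS-res, beside 7.97% of all genes. With the block and without the library labelled WT-res replicate 3 it called 8, beside 16.6% of all genes. KPNA3, another importin alpha, held 119.2, 143.9 and 129.6 CPM in WT-res and 102.8, 115.7 and 95.7 in ΔRS-res, and its log2 fold change of -0.32 had an adjusted p of 0.0311 under the block and 0.257 without it in edgeR. Without the library labelled WT-res replicate 3 it gave -0.33 (adjusted p = 0.163 in edgeR, no block). IPO7, an import receptor for ribosomal proteins and histone H1, held 360.3, 421.8 and 383.7 CPM against 302.7, 338.1 and 308.5. Its fold change of -0.30 had an adjusted p of 0.0271 under the block and 0.232 without it in edgeR, and without that library it was -0.31 (adjusted p = 0.129). Neither gene's groups overlapped. The other members called in the smaller set of 5 libraries with the block were IPO8, IPO13, TNPO1, XPO4 and SNUPN.

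KPNA2 and XPO1, which the study examined by name, overlapped between the lines in whole-cell RNA. By qRT-PCR scaled to a small nuclear RNA, the study reported unchanged total levels of both in ΔRS-res. It reported more of both in nuclear RNA and less in cytoplasmic RNA. That scale differs from the CPM used here, which is relative to all RNAs of a library. For KPNA2 the WT-res libraries held 413.7, 431.8 and 328.9 CPM and the ΔRS-res libraries 433.3, 427.2 and 340.0, with replicate 3 lowest in both lines. The log2 fold change was 0.03 (SE 0.134, adjusted p = 0.959 in edgeR). Once the library labelled WT-res replicate 3 was omitted it was -0.08 (adjusted p = 0.733 in edgeR). XPO1 held 486.9, 513.0 and 448.2 CPM in WT-res against 448.5, 464.1 and 413.1 in ΔRS-res, a fold change of -0.13 (SE 0.0816, adjusted p = 0.592 in edgeR). Without that library XPO1 gave -0.18 (adjusted p = 0.239 in edgeR), and its groups no longer overlapped.

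With the 4 cytoplasmic libraries kept by the study, all 6 Ran cycle genes were higher in ΔRS-res, as were KPNA2, IPO4, IPO13, CSE1L and SNUPN. XPOT, KPNA5 and IPO9 were lower. These 14 calls rest on edgeR's adjusted p under 0.05 with 2 libraries a line. In the same 4 libraries the summed CPM of 6 amino acid stress genes was 1344.4 and 1443.5 in WT-res and 996.9 and 1029.0 in ΔRS-res. Line and this state therefore cannot be told apart for any of these calls. The 11 members called higher were 34.4% of the list, against 10.7% of all 25814 genes tested and 22.5% of the 6345 protein-coding genes with a mean count at least that of the lowest member. The 3 called lower were 9.38%, against 11.4% of all genes and 15.8% of those protein-coding genes. The median log2 fold change was 0.07 over the 32 members and 0.01 over all genes. By role the calls were 6 of 6 Ran cycle genes, 3 of 11 import receptors, 2 of 6 importin alphas, 2 of 8 exportins and SNUPN.

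The size of these differences was small, between -0.38 and 0.50 on the log2 scale, and 0 of the 32 genes passed the study's own limit of 0.5 with an unadjusted p under 0.05 when their transcripts were summed, against 13.1% of all genes. IPO13 held 28.6 and 28.0 CPM in WT-res replicates 1 and 3 and 40.3 and 39.4 in ΔRS-res replicates 1 and 2, a log2 fold change of 0.50 (SE 0.0502, adjusted p = 0.00224 in edgeR). RANGAP1, the GTPase-activating protein of Ran, held 179.9 and 164.1 CPM against 241.6 and 224.8, a fold change of 0.44 (SE 0.0672, adjusted p = 0.00715 in edgeR). KPNA2 held 401.6 and 411.4 CPM against 507.5 and 514.9, a fold change of 0.34 (SE 0.0442, adjusted p = 0.00471 in edgeR). In all 3 genes both ΔRS-res libraries lay above both WT-res libraries, an order found in 17 members (30.3% of all genes), while 9 members had the reverse order (30.4% of all genes).

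Among the other Ran cycle genes the log2 fold changes were 0.33 for RANBP1 (SE 0.0652), 0.28 for NUTF2 (SE 0.046), 0.26 for RAN (SE 0.0606), 0.26 for RANBP3 (SE 0.0452) and 0.17 for RCC1 (SE 0.0417), with adjusted p between 0.00874 and 0.033 in edgeR. RAN held 761.1 and 853.5 CPM in WT-res against 948.6 and 979.8 in ΔRS-res. RANBP1 held 343.8 and 367.6 against 422.1 and 465.3. RANBP3 held 71.6 and 73.9 CPM in WT-res against 89.1 and 84.1 in ΔRS-res, and NUTF2 94.2 and 99.6 CPM in WT-res against 116.1 and 119.0 in ΔRS-res. RCC1 held 171.9 and 178.2 CPM in WT-res against 196.8 and 195.8 in ΔRS-res. In none of these 5 genes did the 4 libraries overlap between the lines.

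Outside the Ran cycle CSE1L held 697.9 and 730.5 CPM in WT-res against 826.2 and 828.4 in ΔRS-res, a log2 fold change of 0.22 (SE 0.0448, adjusted p = 0.0192 in edgeR). IPO4, an import receptor for histones and ribosomal proteins, held 104.7 and 97.9 CPM in ΔRS-res, above both WT-res libraries, a fold change of 0.18 (adjusted p = 0.0438 in edgeR). SNUPN gave 0.34 (adjusted p = 0.00533 in edgeR). Lower in ΔRS-res were IPO9, another importin for histones, with 249.8 and 256.2 CPM in WT-res against 215.8 and 216.9 in ΔRS-res (-0.22, adjusted p = 0.0154 in edgeR), and KPNA5 with 52.7 and 56.6 CPM in WT-res against 47.2 and 45.3 in ΔRS-res (-0.24, adjusted p = 0.02 in edgeR). XPO1 was not called with 4 libraries, at 449.0 and 512.3 CPM in WT-res and 514.8 and 526.3 in ΔRS-res (fold change 0.12, SE 0.0635, adjusted p = 0.235 in edgeR). Its value was 0.02 without WT-res replicate 1 and 0.21 (adjusted p = 0.0249 in edgeR) without WT-res replicate 3.

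XPOT, the export receptor for tRNA, was lower in ΔRS-res by 0.38 on the log2 scale (SE 0.0563, adjusted p = 0.00663 in edgeR) in the same 4 libraries. Its levels were 577.5 and 644.4 CPM in WT-res and 465.7 and 468.9 in ΔRS-res. In both libraries outside this comparison it took the opposite side, with 491.1 CPM in WT-res replicate 2 and 686.9 in ΔRS-res replicate 3. In whole-cell RNA it was highest in replicate 3 of each line (553.3 and 539.1 CPM, against 367.1 to 409.5 elsewhere). Genes of the amino acid stress response moved with it across libraries: the summed CPM of ATF4, ASNS, DDIT3, CHAC1, TRIB3 and SESN2 was 1344.4 and 1443.5 in WT-res cytoplasmic replicates 1 and 3, 996.9 and 1029.0 in ΔRS-res replicates 1 and 2, and 1018.4 and 1603.1 in the WT-res and ΔRS-res libraries left out. In whole-cell RNA the sum was 1294.2 and 1368.9 in replicate 3 of WT-res and ΔRS-res and 829.0 to 883.2 in the other libraries. With 4 cytoplasmic libraries 5 of these 6 genes were called lower (against 11.4% of all genes) and 0 higher (against 10.7%). The 6 genes of this response were listed with earlier results of these data known. The part of this response in the XPOT result was not tested.

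With all 6 cytoplasmic libraries edgeR called 0 of the 32 genes, against 0.578% of all 25949 genes called higher and 0.948% called lower (1.53% in all), and DESeq2's Wald test called 0 members and 3.61% of all genes. At an unadjusted p under 0.05 there were 3 members (9.38%, against 10.8% of all genes). Log2 fold changes then ran from -0.21 to 0.30 with a median of -0.01. Of the 14 genes called with 4 libraries, 12 kept their sign, and IPO4 (-0.06, SE 0.131) and RCC1 (-0.01, SE 0.108) did not. That was 85.7%, against 92.6% of all genes called, in fits that share 4 libraries. KPNA2 then gave 0.13 (SE 0.118, adjusted p = 0.794 in edgeR), RAN 0.07 (SE 0.121) and RANGAP1 0.20 (SE 0.141).

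The 2 libraries left out by the study lay on the opposite side for most of these genes. KPNA2 was at 508.9 CPM in WT-res replicate 2, close to ΔRS-res replicates 1 and 2, and at 424.8 in ΔRS-res replicate 3, close to WT-res replicates 1 and 3. RAN showed the same arrangement with 979.9 and 787.2 CPM. Over the 14 called genes WT-res replicate 2 was nearer to the mean of the ΔRS-res pair in 12 (85.7%, against 72.3% of all 5716 genes called), and ΔRS-res replicate 3 nearer to the mean of the WT-res pair in 12 (85.7%, against 67.4%). SNUPN was the only one of the 14 for which neither library did so.

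Leaving out 1 of the 4 libraries leaves a line with 1 library, which is then assumed to vary like the pair of the other line, and the ΔRS-res pair was the closer one (a chi-square per gene of 24.1, against 60.5 for WT-res). Without ΔRS-res replicate 1 edgeR called 4 members (KPNA2, IPO13, RANBP1 and RANGAP1) and without ΔRS-res replicate 2 it called 2 (IPO13 and RANGAP1), beside 8.56% and 7.73% of all genes, whereas 13 and 15 were called without WT-res replicates 1 and 3. A fit of these 4 libraries jointly with the 6 whole-cell libraries, which shares 1 estimate of the spread, called 0 members and 1.38% of all genes.

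SNUPN was higher in ΔRS-res in every library of both fractions. In the cytoplasm it held 35.5, 40.8 and 37.0 CPM in WT-res and 46.1, 45.1 and 43.2 in ΔRS-res, a log2 fold change of 0.25 (SE 0.0797) with an unadjusted p of 0.0154 and an adjusted p of 0.28 in edgeR. In whole-cell RNA it held 36.1, 35.7 and 36.8 CPM against 41.9, 39.5 and 38.0 (fold change 0.14, SE 0.0726, adjusted p = 0.503 in edgeR, and 0.15 with 0.322 without the library labelled WT-res replicate 3). IPO8, an import receptor that also binds Argonaute proteins, showed the same order in both fractions, with 145.6 to 153.6 CPM in WT-res and 160.8 to 164.9 in ΔRS-res in the cytoplasm.

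XPO4, an exportin for translation factor eIF5A, was lower in all 3 cytoplasmic ΔRS-res libraries. It held 191.4, 211.9 and 211.2 CPM in WT-res and 178.1, 176.6 and 175.3 in ΔRS-res, a log2 fold change of -0.21 (SE 0.0689) with an unadjusted p of 0.015 and an adjusted p of 0.277 in edgeR. KPNA5 and IPO5 also did not overlap, both lower. In all, 2 members lay wholly higher in ΔRS-res (6.25%, against 8.62% of all genes) and 3 wholly lower (9.38%, against 8.56%) with all 6 cytoplasmic libraries.

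Most transport genes stood higher in cytoplasmic than in whole-cell libraries relative to all genes, and so did many protein-coding genes of comparable count. On a scale common to all 12 libraries edgeR called 18 of the 32 genes higher in the cytoplasm of WT-res (56.2%) and 20 in that of ΔRS-res (62.5%), and 0 lower in either line. Of all 26686 genes 16.9% and 16.6% were called higher and 24.8% and 24.3% lower. Among the 6914 protein-coding genes of comparable count 45.9% and 45.2% were called higher. Medians were 0.32 and 0.31 over the members and 0.25 and 0.24 over those protein-coding genes. These values are relative to the other RNAs of the same extract, and amounts per cell cannot be read from them.

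The roles differed in how many members were called between the fractions. Of the 6 importin alphas 5 were called higher in each line (KPNA1, KPNA3, KPNA4, KPNA5 and KPNA6), and of the 11 import receptors 7 (KPNB1, IPO5, IPO7, IPO8, IPO11, TNPO1 and TNPO3). Among the 6 Ran cycle genes RCC1 was called in WT-res, and RAN and RANBP1 in ΔRS-res. TNPO2, a transportin for proteins that bind RNA, gave -0.03 (SE 0.0738) and -0.06 (SE 0.0738), the lowest value of the list in each line, and 0.04 and 0.02 with DESeq2's size factors. In ΔRS-res the largest differences were 1.56 for KPNA5 (SE 0.203), 0.88 for KPNA3 (SE 0.0942) and 0.78 for CSE1L (SE 0.0959), with adjusted p of at most 6.92e-05 in edgeR.

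No member was called for the interaction of fraction and line with 12 libraries: edgeR and DESeq2 each called 0 of 32, and edgeR called 0.00375% of all genes. At an unadjusted p under 0.05 there were 3 members (9.38%, against 5.52% of all genes), namely CSE1L, KPNA3 and KPNA5. For KPNA5 the cytoplasm held more than the whole cell by 0.60 in WT-res and by 1.56 in ΔRS-res, and the interaction of 0.96 (SE 0.281) had an unadjusted p of 0.00531 and an adjusted p of 0.702 in edgeR. On the common scale its levels were 23.0, 38.9 and 48.3 CPM in WT-res whole-cell RNA and 15.0, 18.0 and 17.5 in ΔRS-res, against 55.1, 54.3 and 58.2 and 48.2, 46.7 and 54.2 in the cytoplasm. The WT-res difference between fractions was 0.36 without whole-cell replicate 1 and 0.85 without whole-cell replicate 3. It lost its call without whole-cell replicate 2 (0.65), cytoplasmic replicate 1 (0.61) or cytoplasmic replicate 3 (0.57), with adjusted p of 0.0518, 0.0575 and 0.0746 in edgeR. The lines were farther apart in whole-cell RNA than in the cytoplasm. Without WT-res whole-cell replicate 1 the interaction was 1.20 (adjusted p = 0.00434 in edgeR), and without whole-cell replicate 3 of that label it was 0.71 (adjusted p = 0.889 in edgeR).

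Transcripts annotated with a retained intron made up less of a gene's counts in the cytoplasm. Of the 22 members with such a transcript, 18 had a lower share in every cytoplasmic library than in every whole-cell library (81.8%, against 57.4% of 7546 protein-coding genes with a mean count of at least 100). That set reaches lower counts than any member, so the shares are not matched for count. For XPO1 the share was 9.75% to 12.9% in whole-cell RNA and 4.21% to 5.28% in the cytoplasm. KPNA2 gave 6.18% to 8.21% and 3.01% to 3.48%. NUTF2 gave 1.92% to 2.68% and at most 0.265%. The exceptions were KPNB1, XPO4, RANBP17 and SNUPN, and KPNB1 held 13.8% to 14.6% in the whole cell and 12.4% to 15.3% in the cytoplasm. The nuclear RNA NEAT1 lay between 212.5 and 335.8 CPM in whole-cell libraries and between 72.5 and 122.9 in cytoplasmic ones, each on its own fraction's scale.

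Isoforms were tested with edgeR, where the study used DESeq2, at the study's thresholds, with transcripts called at an unadjusted p under 0.05 and a log2 fold change above 0.5 in size. In whole-cell RNA 15 of 375 tested transcripts of the 32 genes were lower in ΔRS-res (4.0%, against 3.44% of all transcripts) and 2 were higher (0.533%, against 1.81%). With 4 cytoplasmic libraries 8 of 356 were lower (2.25%, against 4.66%) and 9 higher (2.53%, against 4.12%). With 6 cytoplasmic libraries 4 of 361 were lower (1.11%, against 2.13%) and 3 higher (0.831%, against 1.93%). At an adjusted p under 0.05 edgeR called 0 transcripts of these genes in each of the 3 comparisons.

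A nuclear export (NE) target is defined by the study as a transcript called lower in the cytoplasm of ΔRS-res and not called in whole-cell RNA. By that definition 8 of 347 transcripts of the 32 genes were NE targets with 4 cytoplasmic libraries (2.31%, against 4.32% of all transcripts), and 4 of 349 with 6 (1.15%, against 1.74%). The 8 belonged to KPNA2 and XPO1 with 2 each and to IPO4, IPO8, IPO9 and KPNA5 with 1 each. With 6 libraries they belonged to IPO4, RAN, RCC1 and XPO1, and the IPO4 and XPO1 transcripts were NE targets in both sets.

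Both NE target transcripts of KPNA2 were minor isoforms, at ranks 13 and 14 among 21, while the leading isoform ENST00000330459 held 93.3% of the gene's counts. ENST00000677827, the isoform without the 4 bases printed above, held 0.0453% of the cytoplasmic counts of KPNA2. Its expected counts were 17.63, 43.5 and 70.76 in WT-res cytoplasm and 0.0, 0.0 and 22.58 in ΔRS-res cytoplasm. ENST00000584026 held 0.042%, with 31.73, 35.14 and 12.57 counts in WT-res and 0.0, 0.0 and 63.62 in ΔRS-res. The highest count of ENST00000584026 was thus in the ΔRS-res library left out by the study. With 4 libraries their unadjusted p were 0.00634 and 0.0147 and with 6 they were 0.138 and 0.754 in edgeR, and no fold change is given against libraries at 0.

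For XPO1 the NE target transcripts ranked 30 and 38 among 55, in a gene whose leading isoform held 21.8% of its counts. ENST00000677928 had 101.77, 0.0 and 254.95 expected counts in WT-res cytoplasm and 0.0 in all 3 ΔRS-res cytoplasmic libraries, and 0.0 in every whole-cell library except ΔRS-res replicate 2 with 44.63. It made up 0.097% of the cytoplasmic counts of XPO1 and gave an unadjusted p of 0.000812 with 4 libraries and 0.0275 with 6 in edgeR, the adjusted p being 0.175 and 0.941. ENST00000677289, annotated for nonsense-mediated decay, had 135.73, 66.93 and 211.36 counts in WT-res cytoplasm and 100.75, 108.16 and 225.64 in ΔRS-res. Those groups overlapped once all libraries were used, and its log2 fold change went from -0.77 (SE 0.205) with 4 libraries to -0.03 (SE 0.478) with 6.

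IPO4 ENST00000558193, a retained-intron transcript of 555 bases and an NE target in both sets, had 11.7, 5.92 and 7.92 counts in WT-res cytoplasm and 1.41, 0.0 and 1.55 in ΔRS-res. The groups did not overlap at these low counts, and its adjusted p was 0.408 with 4 libraries and 0.941 with 6 in edgeR.

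The amount of sequence that told these isoforms from the others of their genes varied. IPO8 ENST00000544829 had 282 of 3163 windows of 50 bases to itself and IPO9 ENST00000464348 had 167 of 789. Of the 1672 windows in ENST00000677827, 47 occurred in no other KPNA2 transcript of the file, all at 1 place, and the same number set ENST00000584026 apart. In ENST00000677928 of XPO1 23 of 4545 windows were found in no other of the 54 transcripts, and in ENST00000558193 of IPO4 4 of 506. RCC1 ENST00000683442, an NE target with 6 libraries, had 0 windows of its own. Its expected counts were 1940.92, 2818.73 and 2691.47 in WT-res cytoplasm and 1454.7, 1984.84 and 1452.61 in ΔRS-res, a log2 fold change of -0.68 (SE 0.142, adjusted p = 0.42 in edgeR) for an isoform with 8.92% of the gene's cytoplasmic counts.

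**Figure D1:**
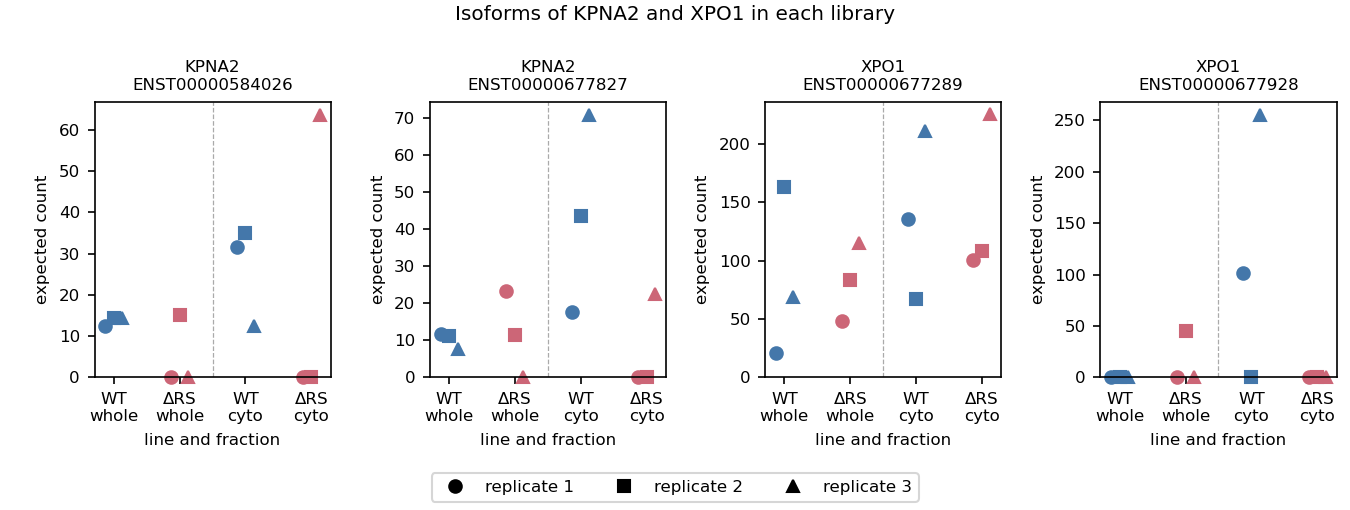
Expected counts of the 4 NE target transcripts of KPNA2 and XPO1 in each of the 12 libraries, with symbols for the replicate. ΔRS-res cytoplasmic replicates 1 and 2 are at 0.0 for 3 of the 4 transcripts, and the highest of the 12 values of ENST00000584026 is in ΔRS-res cytoplasmic replicate 3.

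The promoters of the list were searched for 3 short motifs. Of the 32 genes 27 matched the RefSeq promoter table (GRCh38.p14), with 36 windows from 250 bases before to 50 after a start. The E-box CACGTG, read on both strands and bound by MYC and related factors, was in 7 of the 36 windows (19.4%, against 7.26% of all 35116 windows). GCATGCG, part of the palindrome bound by NRF1, was in 5 windows (13.9%, against 3.91%), and AAGGTCA, the core site of estrogen-related receptors, in 0 (0.0%, against 3.92%). Of the Ran cycle genes RAN and RCC1 held CACGTG and RANBP3 and RCC1 held GCATGCG, the 2 windows each of RANGAP1 and NUTF2 held neither, and RANBP1 had no window. A match describes letters and not occupancy.

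The 250 bases before a start are shown for RAN (chr12:130871816-130872065, plus strand), RANBP3 (chr19:5978141-5978390, minus strand) and XPO1 (chr2:61537088-61537337, minus strand) of GRCh38.p14. All 3 were picked as windows that hold a match. RAN and RANBP3 are Ran cycle genes called with 4 libraries, and XPO1, of whose windows 1 is shown, was not called between the lines at an adjusted p under 0.05 in the fits of 4, 6 or 12 libraries. The capitals mark CACGTG in RAN and XPO1 and 2 overlapping matches to GCATGCG, 1 on each strand, in RANBP3.
RAN: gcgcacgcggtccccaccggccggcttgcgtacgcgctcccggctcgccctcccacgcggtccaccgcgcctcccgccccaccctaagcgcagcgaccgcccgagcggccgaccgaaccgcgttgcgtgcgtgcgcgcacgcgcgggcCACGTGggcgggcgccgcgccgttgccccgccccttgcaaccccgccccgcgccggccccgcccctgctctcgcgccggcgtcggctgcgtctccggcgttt
RANBP3: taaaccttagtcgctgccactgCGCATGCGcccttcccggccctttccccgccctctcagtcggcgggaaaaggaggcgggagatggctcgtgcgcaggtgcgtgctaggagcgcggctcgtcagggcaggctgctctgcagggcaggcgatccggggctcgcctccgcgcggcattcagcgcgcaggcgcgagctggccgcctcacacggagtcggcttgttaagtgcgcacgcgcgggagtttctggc
XPO1: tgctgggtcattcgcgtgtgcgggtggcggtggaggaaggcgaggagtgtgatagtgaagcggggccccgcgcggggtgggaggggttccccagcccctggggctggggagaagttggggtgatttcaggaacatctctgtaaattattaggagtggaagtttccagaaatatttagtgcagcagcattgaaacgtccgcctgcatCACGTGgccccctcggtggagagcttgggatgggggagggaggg

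Other factors of nuclear transport, 17 genes outside the list, were tested in the same fits. With 4 cytoplasmic libraries 5 were called higher in ΔRS-res and 0 lower by edgeR, with a median log2 fold change of 0.14. Of all genes tested 10.7% were called higher and 11.4% lower, and of protein-coding genes of comparable count 22.5% and 15.8%. Among the 5 were NXF1, the bulk mRNA export receptor (0.42), the pore protein RANBP2 (0.37), the pore protein NUP50 (0.29) and the import receptor RANBP6 (0.22). Their whole-cell values were -0.02, -0.74, -0.07 and -0.42 in the same order, with the library labelled WT-res replicate 3 included. In whole-cell RNA and with 6 cytoplasmic libraries edgeR called 0 of the 17, with medians of -0.06 and 0.05. Between the fractions 8 were called higher in the cytoplasm of WT-res and 11 in that of ΔRS-res, and 0 lower. Of all genes 16.9% and 16.6% were called higher, and of protein-coding genes of comparable count 45.9% and 45.2%.

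Some members have close copies in the genome. Pseudogenes named for RAN, 9 in number, held 0.124% of the count of RAN, and 7 named for NUTF2 held 0.012%. The highest share was 1.08%, for the pseudogene of IPO5. Reads shared with such copies are split by RSEM, so small differences in these genes carry that uncertainty.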

How the data were processed

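RNA was sequenced from whole-cell and cytoplasmic extracts of WT-res and ΔRS-res cells, 3 libraries a group, after depletion of ribosomal RNA. Per the submitters' processing notes, Trim Galore, STAR and RSEM were used, and the authors deposited RSEM expected counts per transcript, in which reads shared by isoforms or similar genes are divided by estimate. Expected counts were summed per gene (61860 genes, 251121 transcripts) and rounded to whole numbers, and genes with a mean count above 2 were tested. Transcript types, lengths and coordinates came from GENCODE release 44 (GRCh38), which held 99.83% of the genes. The study used Ensembl 107.

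Lines were compared within a fraction, and fractions in 1 fit of 12 libraries, by edgeR's quasi-likelihood test (edgeR 4.0.16, R 4.3.3, TMM) with Benjamini-Hochberg adjustment over all genes tested and a threshold of 0.05. DESeq2 1.42.0 was an alternative, as were its size factors, other filters on low counts, the replicate block, the joint fit, the study's threshold and the omission of each library. On simulated data with 200 changed genes, the whole-cell test recovered 62% of log2 changes of 1 and 98% of log2 changes of 2. It called 8 unchanged genes among the 26325 simulated. The test with 4 cytoplasmic libraries recovered 85% and 99% and called 43 unchanged genes among 25201. With 6 cytoplasmic libraries the test recovered 78% and 99% and called 17 unchanged genes among 25445. Same-numbered libraries of both lines deviated together in whole-cell RNA (r = 0.568, 0.58 and 0.692 across 14938 genes). In the cytoplasm numbers 2 and 3 did so (0.635 and 0.463) and number 1 did not (-0.45). Between the fractions of a line r was -0.163 for WT-res number 1 and 0.483 to 0.801 for the other pairs. The replicates came from consecutive passages, but the labels do not say that the same number is the same passage in both lines.

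KPNA2 and XPO1, the members called between the lines, the highest and lowest of each role and those with an NE target in both sets were described in full. The members and the other gene lists were chosen with earlier results of these data known. Depth limits transcripts of a few counts, and protein sequences were not used here. Of the other transport factors 1 gene is counted but not reported by name here.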

Additional observations from a re-analysis of the deposited data

How the results depend on the processing

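Within each comparison, no called fold change of the 32 genes changed sign under the alternatives run. Between comparisons, IPO4 and RCC1, called with 4 cytoplasmic libraries, changed sign when all 6 were used. Values near 0 that were not called changed sign within a comparison in 10 genes in whole-cell RNA (KPNA2 among them). They did so in 6 genes with 4 and 15 with 6 cytoplasmic libraries, 12 for the interaction and 2 between the fractions of each line. In whole-cell RNA the 0 calls became 1 with DESeq2's Wald test, with the joint fit and with the study's threshold, 3 with the replicate block, 8 with the block and without the library labelled WT-res replicate 3 (added after seeing the data), and 0 to 1 when single libraries were left out. With 4 cytoplasmic libraries the 14 calls became 0 in the joint fit and 0 at the study's threshold, and 2 to 15 when single libraries were left out. With 6 the count stayed at 0 in every alternative, the block included. Interaction calls ranged from 0 to 1 without single libraries, the 1 being KPNA5 without WT-res whole-cell replicate 1, and were 0 with the block. Fraction calls were 24 and 25 with the block, against 18 and 20. At an adjusted p the transcript counts were 0 throughout. Without single libraries they ran from 18 to 28 with 4 cytoplasmic libraries (28 without WT-res replicate 3) and from 8 to 12 with 6 (12 without WT-res replicate 2 or without ΔRS-res replicate 3), and NE targets from 6 to 12 and from 2 to 6 (2 without WT-res cytoplasmic replicate 1 or 3). NE targets with 6 libraries were 2 at a mean count of at least 10. With the replicate block 17 transcripts passed in whole-cell RNA, 9 with 6 cytoplasmic libraries, and 4 were NE targets. The block could not be fitted to 4 cytoplasmic libraries, which leave no residual degrees of freedom. The causes were not tested.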

Other observations

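Lists of genes for the state of the cells were tested in the same fits. With 4 cytoplasmic libraries edgeR called 3 of 10 G2 and M phase genes and 3 of 8 S phase genes higher in ΔRS-res and 0 lower, with median log2 fold changes of 0.03 and 0.13. In that fit 10.7% of all genes were called higher and 11.4% lower. Of 8 growth genes 2 were called higher and 2 lower (median 0.03), and of 5 HEK293 markers PAX2 was called lower (-0.41). In whole-cell RNA and with 6 cytoplasmic libraries edgeR called 0 genes of each of these lists. Of the nuclear RNAs NEAT1, MALAT1 and KCNQ1OT1, 2 were called lower in the cytoplasm of each line (against 24.8% and 24.3% of all genes), with medians of -1.52 in WT-res and -1.5 in ΔRS-res. Their summed level in whole-cell RNA was 3512.2 CPM in the library labelled WT-res replicate 3 and 1587.2 to 2426.4 in the others.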
